A study of Mus musculus with 6 samples.

Results

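The genes of 9 myeloid transcription factors, Spi1, Cebpa, Cebpb, Cebpe, Irf8, Gfi1, Runx1, Klf4 and Myb, were followed through 6 replication timing profiles of mouse myeloid cells. They were chosen by name and read at their RefSeq coordinates (mm10, GRCm38.p6), and each took the score of the sequencing window nearest its midpoint. All 9 carried a value in each profile, out of 18063 protein-coding autosomal genes that did so and 21631 protein-coding genes on chromosomes 1 to 19 and X. The cells were HoxB8-immortalised lines selected in GM-CSF, 3 samples labelled WT and 3 labelled Recql4 -/- Klhdc3 -/-, and genomic DNA of growing cultures was sequenced with no sorting named in the labels. HoxB8 is a transcription factor that holds myeloid progenitors in a dividing state, so the profiles describe immortalised progenitor-like lines. The labels do not say whether samples of a genotype are separate clones. The value columns of the tables carry no sample names, so no genotype was compared, and the columns are called profiles A to F in their order in the tables. DNA copy levels hold no expression, so the cell type was not checked against marker genes.

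Replication timing is the order in which stretches of the genome are copied during S phase, and early stretches tend to be gene rich and transcribed. PU.1 (the product of Spi1), RUNX1, C/EBPα and MYB act in blood progenitors, where PU.1 and C/EBPα direct cells to the myeloid lineage. GFI1 and C/EBPε act in the granulocyte branch, IRF8 and KLF4 favour monocytes, and C/EBPβ acts in macrophages and in the rapid production of granulocytes during infection. In a growing culture early DNA is present in more copies than late DNA. The raw level used below is the authors' copy level per window, near 2 on the autosomes. The timing score is its smoothed form, with mean 0 and SD 1 over the autosomal windows of a profile, and a higher score stands for earlier replication.

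The sequence just before a start site is shown for 3 members, because they set the gene of highest median score (Gfi1), that of lowest (Klf4) and the pair of distant starts of Runx1 side by side. Each run is the 250 bases before the annotated start, 5′ to 3′ on the gene's own strand, from RefSeq (GRCm38.p6), with CpG dinucleotides in capitals. The Gfi1 run covers chr5:107725806-107726055, the Klf4 run chr4:55532476-55532725, the distal Runx1 run chr16:92826075-92826324 and the proximal Runx1 run chr16:92697330-92697579, all on the minus strand.
Gfi1: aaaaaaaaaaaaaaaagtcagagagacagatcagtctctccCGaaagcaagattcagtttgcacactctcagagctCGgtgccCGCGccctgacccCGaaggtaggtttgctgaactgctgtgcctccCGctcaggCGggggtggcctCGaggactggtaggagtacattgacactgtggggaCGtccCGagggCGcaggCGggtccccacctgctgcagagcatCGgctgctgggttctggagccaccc
Klf4: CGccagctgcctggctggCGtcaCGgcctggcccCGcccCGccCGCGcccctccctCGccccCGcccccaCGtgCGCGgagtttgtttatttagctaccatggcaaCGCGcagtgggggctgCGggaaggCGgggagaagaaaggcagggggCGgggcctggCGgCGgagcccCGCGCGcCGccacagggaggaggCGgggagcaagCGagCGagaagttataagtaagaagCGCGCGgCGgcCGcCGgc
Runx1 distal: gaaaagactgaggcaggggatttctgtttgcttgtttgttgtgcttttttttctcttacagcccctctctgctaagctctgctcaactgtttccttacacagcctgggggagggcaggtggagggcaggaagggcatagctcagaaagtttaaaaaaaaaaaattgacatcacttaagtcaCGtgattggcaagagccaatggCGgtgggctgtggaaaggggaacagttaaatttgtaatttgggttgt
Runx1 proximal: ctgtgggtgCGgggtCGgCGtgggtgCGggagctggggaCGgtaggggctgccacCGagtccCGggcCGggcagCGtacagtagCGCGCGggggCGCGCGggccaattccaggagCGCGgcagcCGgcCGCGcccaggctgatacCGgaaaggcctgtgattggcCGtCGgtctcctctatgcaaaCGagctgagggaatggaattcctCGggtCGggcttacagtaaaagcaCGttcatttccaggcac

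The Klf4 stretch held 32 CpG at 74% G and C, and the stretch before the upstream start of Gfi1 held 13 at 59.2%. The distal Runx1 stretch held 2 CpG at 45.6% and the proximal one 27 at 67.6%. Promoters were matched for 7 of the 9 members, 10 stretches in all, with a median of 24.5 CpG (2 to 41). The same count had a median of 10 (quartiles 3 and 19) over 21045 promoters of protein-coding genes. These letters are a description of the starts and were not tested against timing.

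Most of the 9 genes lay in early replicating DNA. The median of their scores was 1.17, against 0.82 over all 18063 genes (quartiles 0.24 and 1.19). Of the 9 members, 8 scored above 0 in each profile, and the exception was Klf4. Over all genes 76.4% scored above 0 in each profile, so that count alone lies near the background. Gfi1, Spi1 and Myb were among the earliest 20% of genes in each profile, 3 of 9 members where 14.1% of all genes were. The median of the members exceeded the all-gene median in every profile, by the widest margin in B (1.28 against 0.85) and the narrowest in E (1.13 against 0.82).

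**Figure D1:**
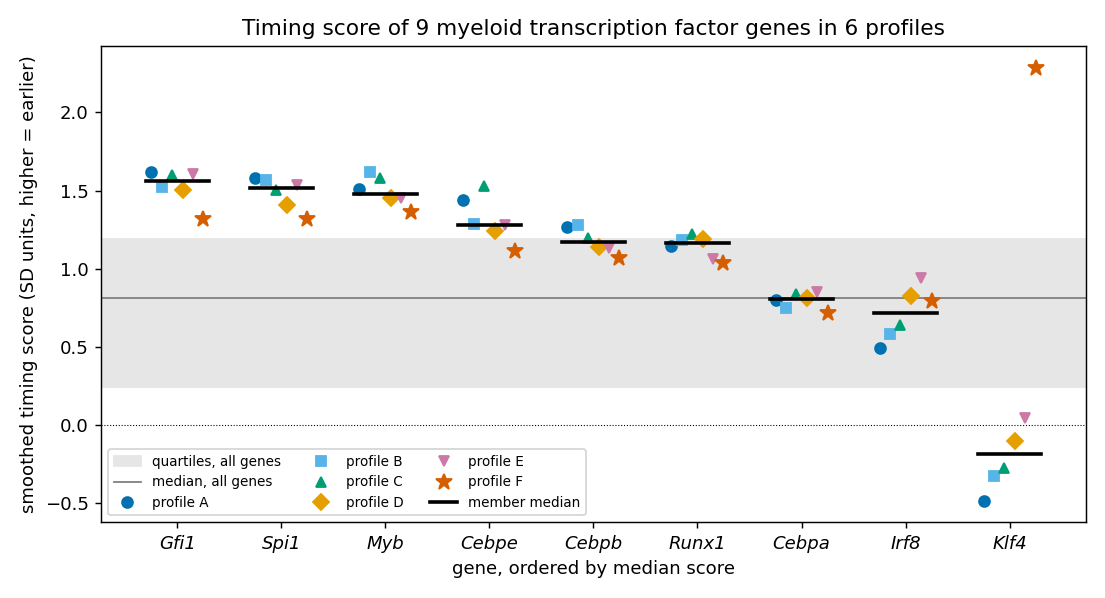
Smoothed timing score (vertical axis, SD units, higher is earlier) of each gene in profiles A to F (points), with the member's median (bar) and the median and quartiles over all genes (line and band). Gfi1, Spi1 and Myb lie above the band in each profile, and the profile F point of Klf4, at 2.29, is far above its other 5.

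Among the progenitor factors, Spi1 and Myb were early, Runx1 somewhat later and Cebpa near the middle of all genes. Spi1 (chromosome 2, 91082374 to 91115759) scored 1.58, 1.57, 1.51, 1.40, 1.53 and 1.32 in A to F. Profile F had the lowest score and A the highest. In the ranking of all genes Spi1 stood lowest in D, at 88.4%, and highest in A, at 94.2%. Spi1 sat on a broad early plateau: 250 kb to the lower and the higher side the median scores were 1.50 and 1.50, and its own was 1.52.

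Myb (chromosome 10, 21124930 to 21160984) scored 1.51, 1.62, 1.58, 1.45, 1.45 and 1.36. Its early DNA was a rounded summit, with a timing peak 45.1 to 115 kb to the lower-coordinate side of the gene in every profile. A timing peak is a local maximum that stands out by at least 0.25 score units. The score fell from the gene to 0.91 at 500 kb on the higher side, where profile F was the lowest at 0.46. Of the 3 other genes scored within 500 kb, Ahi1, mutated in Joubert syndrome, was the earliest at 1.49.

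Runx1 (chromosome 16, 92601466 to 92826074) is the longest member, at 224609 bp. Its scores of 1.15, 1.18, 1.22, 1.19, 1.06 and 1.04 spanned only 0.18 units. Inside the gene the score climbed from the lower to the higher end by a median of 0.15 (0.13 to 0.20). The distal start, 129 kb upstream of the proximal start, was therefore earlier in all 6 profiles, with medians of 1.23 and 1.16. The score is smoothed over neighbouring windows, so this step is one slope and not a pair of independent readings. Each of the 7 other genes scored within 500 kb was later than Runx1, from the chloride channel gene Clic6 at 0.99 to the potassium channel subunit gene Kcne2 at 0.79. All 7 lay on the lower-coordinate side. On the higher side the median score rose to 1.28 at 250 kb. The nearest timing peak lay on that side in every profile, 268 to 409 kb from the midpoint of Runx1.

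Cebpa (chromosome 7, 35119293 to 35121928) had the narrowest range of the members in the deposited smoothed score, with 0.80, 0.75, 0.84, 0.82, 0.85 and 0.71 in A to F. Its range of 0.14 was narrower than that of all but 5.46% of genes. With the profiles rescaled over other autosomes, as given below, its range was 0.120 and that of Spi1 0.114. On rescaled raw levels within 50 kb Cebpa ran from 0.67 to 1.03, a wider span than at Gfi1, Runx1 and Myb and narrower than at the others. Cebpa lay 32.0 to 92.2 kb from a timing peak in every profile, on a small summit that fell to 0.35 at 500 kb below and 0.16 at 500 kb above. Cebpg, which encodes another C/EBP protein and neighbours Cebpa, scored 0.82. Both genes sit on the same summit.

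Among the granulocyte factors Gfi1 had the highest median smoothed score of all members, though it was earliest only in A, C, D and E. Gfi1 (chromosome 5, 107716655 to 107725805), a zinc-finger repressor, scored 1.62, 1.53, 1.60, 1.50, 1.60 and 1.32, so profile F again stood lowest. It lay at the edge of an early domain: the median score was 0.29 at 1000 kb below, 0.95 at 500 kb below, 1.56 at the gene and 1.58 at 500 kb above. Evi5, a cell cycle regulator 88.7 kb away, was the earliest of 14 neighbours at 1.57.

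Cebpe (chromosome 14, 54710363 to 54712174), which switches on genes of the secondary granules, scored 1.44, 1.29, 1.53, 1.24, 1.28 and 1.11. Profiles A and C were high and F low, and the range of 0.42 exceeded that of 85.7% of genes. The gene stood at the top of its neighbourhood. A timing peak lay within 53.4 kb of it in every profile, and the peak was at most 0.01 units above the gene. All 36 other genes scored within 500 kb had lower medians, from 1700123O20Rik at 1.28, which Cebpe preceded in 3 of 6 profiles, down to 0.89 at Dad1, a subunit of the oligosaccharyltransferase.

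Cebpb (chromosome 2, 167688915 to 167690432) scored 1.27, 1.28, 1.20, 1.14, 1.13 and 1.07. It lay on the shoulder of an early domain, with 1.16 at 500 kb below, 0.68 at 500 kb above and -0.60 at 1000 kb above. The distance to the nearest peak ran from 8.12 kb in F to 764 kb in D. Cebpa and Cebpe were the members within 100 kb of a peak in each profile, 2 of 9 against 5.77% of all genes.

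**Figure D2:**
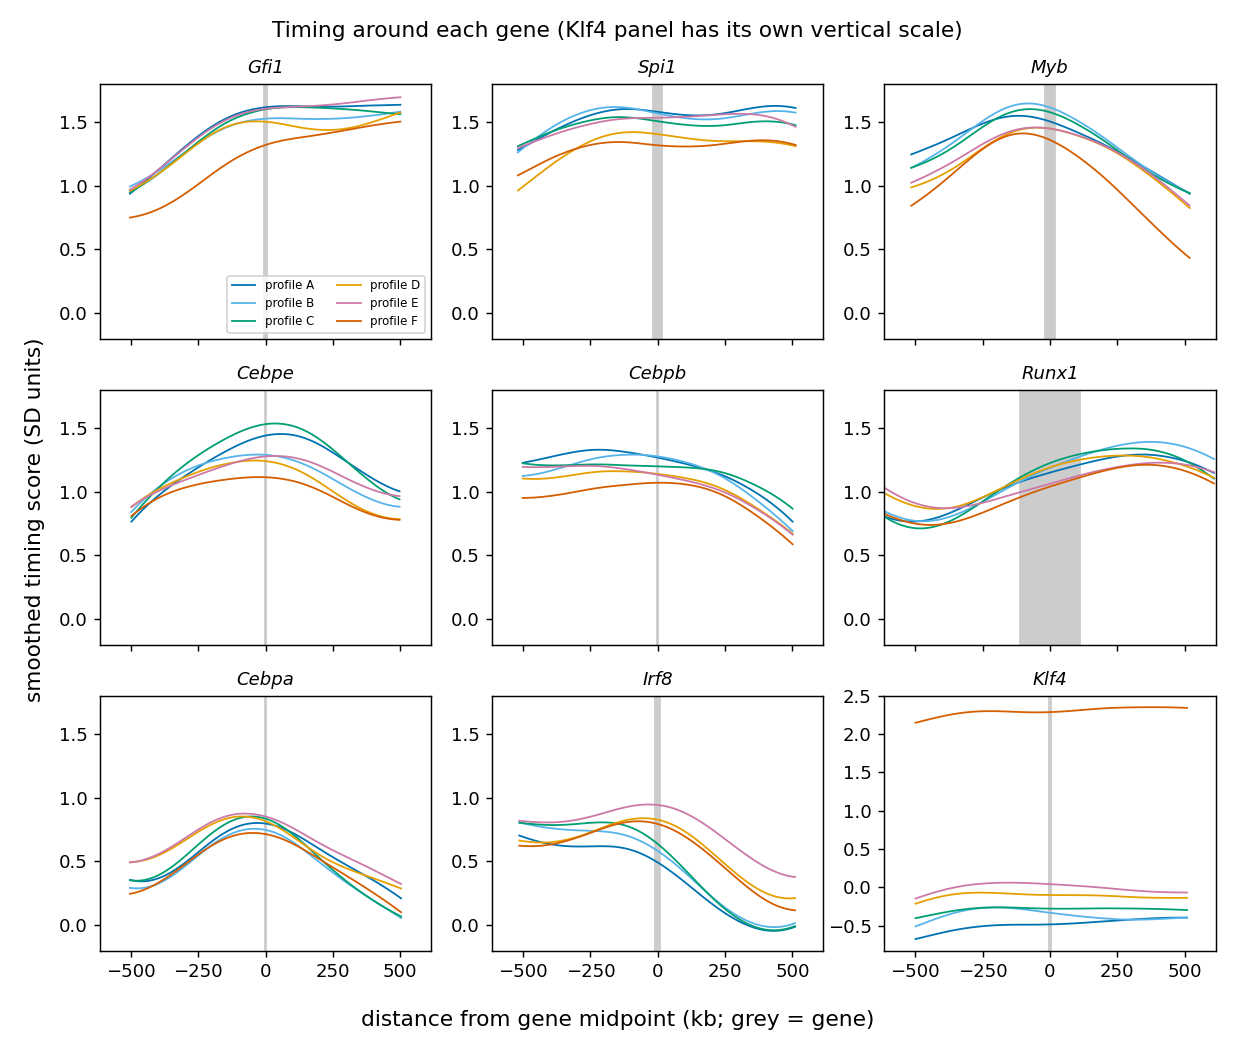
Smoothed timing score (vertical axis, SD units) against distance from the gene's midpoint (horizontal axis, kb), 1 line per profile and 1 panel per gene, with the gene in grey. Cebpe, Cebpa and Myb sit on summits, Gfi1 and Cebpb at edges of early domains, and at Irf8 the lines of D, E and F part from those of A, B and C on the higher-coordinate side.

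The monocyte factors Irf8 and Klf4 had the lowest median smoothed scores and the widest ranges, although Cebpa was later than Irf8 in D, E and F. Irf8 (chromosome 8, 120736358 to 120756694) scored 0.49, 0.58, 0.64, 0.83, 0.94 and 0.79 in A to F. The values of A, B and C lay below those of D, E and F without overlap, and the ranking among all genes ran from 32.1% in A to 57.5% in E. Klf4 parted in the same way, and Cebpe, Cebpb and Myb in the opposite direction, with A, B and C higher. With the profiles rescaled over other autosomes, as given below, only Irf8 and Klf4 still parted without overlap. The share of all genes that part in this way is not given here. Raw levels within 50 kb of Irf8 were 2.08, 2.09, 2.10, 2.12, 2.15 and 2.14, in which A, B and C again were the lowest 3.

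The profiles parted mainly on the higher-coordinate side of Irf8. At 500 kb below the gene the scores were 0.70, 0.80, 0.80, 0.66, 0.82 and 0.62, in no such order. At 250 kb above it they were 0.10, 0.14, 0.13, 0.48, 0.68 and 0.45. The unsmoothed raw level over the 30 windows from 100 to 400 kb above was 1.98, 1.98, 1.98, 2.02, 2.07 and 2.05. Over the 30 windows from 100 to 400 kb below it was 2.06, 2.07, 2.07, 2.04, 2.05 and 2.08. The SD among windows was 0.139 to 0.175 above and 0.144 to 0.164 below. These intervals were chosen after the values were seen. Chromosome 8 as a whole had median raw levels of 1.97, 1.97, 1.97, 1.96, 1.96 and 1.96. At 1000 kb above, next to a separate early domain, the scores came together again at 0.98 to 1.23.

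The nearest timing peak lay at -52.4, -31.9 and -72.7 kb from Irf8 in D, E and F, and at -1121, -1162 and -692 kb in A, B and C, where minus marks the lower-coordinate side. The latest gene within 500 kb was Foxl1, a forkhead transcription factor gene 383 kb above, at 0.11. Whether the difference between profiles follows genotype cannot be told without sample names and was not tested.

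Klf4 (chromosome 4, 55527137 to 55532475) was the latest member in 5 profiles and the highest in the sixth. Its scores were -0.48, -0.33, -0.28, -0.10 and 0.04 in A to E and 2.29 in F. In A to E it ranked from 10.8% to 19.3% of all genes, and in F at 99.9%. Even without F the range was 0.53. The raw level within 50 kb was 1.89, 1.91, 1.94, 1.95 and 1.95 in A to E and 2.31 in F, which is 119% of the median of the other 5.

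The high value of profile F belonged to a whole stretch of chromosome 4 and not to Klf4 alone. In 100-kb bins the raw level of F was 115% to 123% of the median of A to E without a break from 54400001 to 56800000, a run of 24 bins (2400 kb). Of its 6 protein-coding genes 4 had a score, and F was the highest profile at each of the 4. This largely follows from how the run was set, by a high raw level of F, and adds no separate support. The run ended where F lacked values: the next 100 kb below held 1 valued window of 11 in F and the next 100 kb above 0 of 11, against 11 of 11 in A on both sides. Within 10 Mb of Klf4, A had values in 182 and F in 92 of 198 such bins, F above each other profile in all 92. In all 92 bins F also exceeded 110% of the median of A to E. The 2400 kb is thus the length between gaps in F, and the extent of the raised level was not measured. Chromosome 4 held 1715 windows without a value in F and 214 to 229 in the others. The median raw level of chromosome 4 outside the run was 1.98 in F and 1.95 to 1.97 in the others. It takes in valued windows only, among them the other raised bins of F. The limit of 110% that set the run was chosen after the values were seen.

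Set against its own stretch, Klf4 in F looked like Klf4 elsewhere. Its score minus the mean of the run was -0.0025 in F and between -0.07 and 0.12 in A to E. Its raw level within 50 kb was 98.9% of the mean of the run in F and 98.5% to 101% in the others. More copies of the stretch and earlier replication of the whole stretch cannot be told apart from one depth value. The single other gene scored within 500 kb was Rad23b, a DNA repair factor gene, with a median over all 6 profiles of -0.17 and a range of -0.49 to 2.29.

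**Figure D3:**
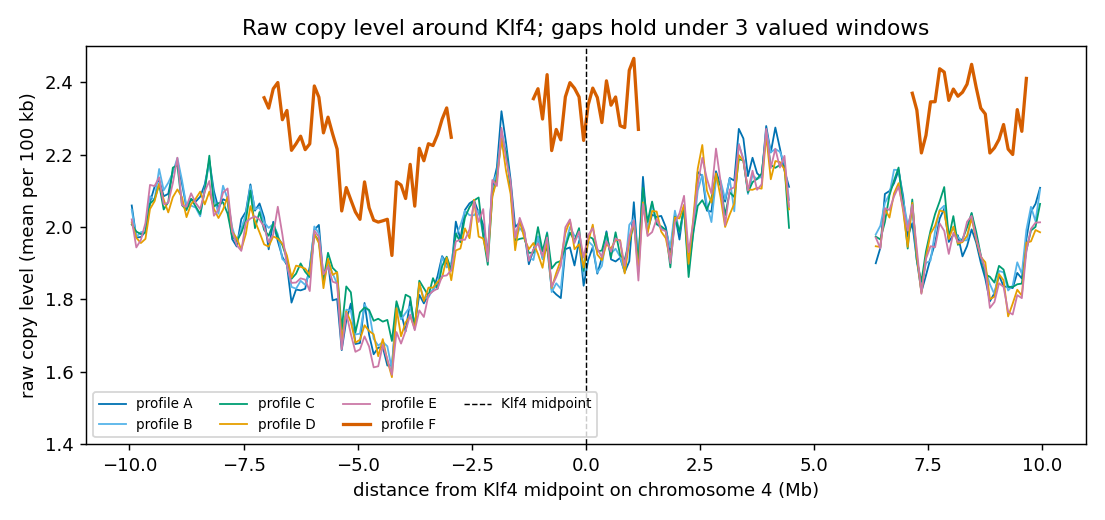
Raw copy level (vertical axis, mean of 100 kb, where a gap holds under 3 valued windows) against distance from Klf4 on chromosome 4 (horizontal axis, Mb), 1 line per profile. Profile F has values in 92 of 198 bins and lies above the others, and over 110% of their median, in all 92. The 2400-kb run around Klf4, at 115% to 123% of their median, ends at gaps in F.

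The order of the members depended on how the unsmoothed copy level was read. The mean raw level over each gene and 500 kb on both sides was put on a scale where 0% is the latest 20% of the genome and 100% the earliest 20%. Spi1 stood at 108% (103% to 110%), Gfi1 at 103%, Myb at 101%, Cebpe at 95.2%, Runx1 at 93.8% and Cebpb at 92.4%. Cebpa stood at 72.8% (68.2% to 78.1%) and Irf8 at 72.4% (65.9% to 82.0%). Klf4 stood at 40.0% to 57.6% in A to E and at 148% in F. Within 50 kb of the gene, with raw levels rescaled to mean 0 and SD 1 over 100-kb bins, the order by median was Cebpe (1.52), Gfi1 (1.46), Myb (1.40), Cebpb (1.18), Spi1 (1.18), Runx1 (1.10), Irf8 (1.01), Cebpa (0.79) and Klf4 (-0.16). Cebpe thus moved to the top, Spi1 fell behind Cebpb, and Irf8 passed Cebpa. Single windows were noisy, with an SD of 0.108 to 0.162 among the raw windows around a member. The window nearest the midpoint of Runx1, for example, read 1.92 to 1.99 while its 500-kb surroundings averaged 2.11 to 2.15.

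In the order of medians most neighbours did not differ beyond their spread. The sequence was Gfi1, Spi1, Myb, Cebpe, Cebpb, Runx1, Cebpa, Irf8 and Klf4. The widest step, 0.90 from Irf8 to Klf4, was seen in 5 of 6 profiles, and these ranges overlapped only through profile F. Without F, Klf4 reached at most 0.04 and Irf8 at least 0.49. Over all 6 profiles the ranges of neighbours were apart at 1 step, from Runx1 to Cebpa, a drop of 0.36 in the median seen in 6 of 6 profiles. Myb was ahead of Cebpe and Cebpe ahead of Cebpb in 6 of 6 profiles as well, although their ranges overlapped. Spi1 was ahead of Myb in 2 profiles and behind it in 4, and Cebpb and Runx1 differed by 0.0033 in the median. Cebpa was ahead of Irf8 in A, B and C and behind it in D, E and F.

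Members that varied most were Klf4, Irf8 and Cebpe, with ranges of at least 0.4 units, 3 of 9 against 15.9% of all genes. The median range of the members was 0.26 and that of all genes 0.27. Profile F scored lowest at Gfi1, Spi1, Myb, Cebpe, Cebpb, Runx1 and Cebpa, and its median over all genes, 0.70, was also below the 0.79 to 0.87 of the others. With each profile rescaled over the autosomes other than 3, 4, 6, 12, 14, 17 and 19, the median range of the members fell to 0.16. The median range of all genes was then 0.23. After this rescaling F was the lowest profile only at Gfi1 and Cebpe. Irf8 then ranged over 0.48 and Klf4 over 3.09, while Cebpe fell to 0.29, and 14.5% of all genes ranged over at least 0.4.

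Members other than Klf4 had genes elsewhere in the genome with scores within 0.1 units of theirs, the measure being the root mean square difference to a gene over 1 Mb away. The gene most like Spi1 was Prr14 on chromosome 7, the smallest difference being 0.0175 units, and that most like Gfi1 was Crk on chromosome 11, at 0.0192. Within 0.1 units lay 746 genes for Spi1 and 1419 for Cebpb. For Irf8 there were 21, Pdia5 on chromosome 16 being nearest at 0.0596. For Klf4 there was none, and the nearest was Zfp618, also on chromosome 4, at 0.144. Zfp618 shared the high value of profile F, at 2.21.

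Most relatives of the members lay in early replicating DNA, and a few lay in late DNA. Of 69 related genes and known targets listed, 62 had a score in every profile, 56 of these scored above 0 in each profile, 3 below 0 in each, and their median was 0.97. Over all genes 76.4% scored above 0 in each profile and the median was 0.82. The share of all genes below 0 in each profile is not given here. Unscored were Elf4 and Cybb on X, Klf9 and Csf2ra on chromosome 19, and Klf11, Fos and Id2 on chromosome 12, which has values in 4 profiles.

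By the median smoothed score, Spi1, Runx1, Myb and Gfi1 were earlier than the scored relatives on their lists, but on rescaled raw levels within 50 kb this held only for Gfi1. On that scale Spi1 (1.18) was below Elf1 (1.59) and Etv6 (1.19), Runx1 (1.10) below Runx3 (1.15), and Myb (1.40) below Mybl1 (1.42). In the smoothed score the 9 ETS relatives of Spi1 ran from Elf1 at 1.45 to the progenitor factor Erg at -0.16. The medians of the 4 relatives and partners of Runx1 ran from Runx3, which acts in lymphocytes, at 1.12 to Runx1t1, a corepressor gene, at -0.84. Runx1 and Runx3 did not separate, since Runx3 scored higher than Runx1 in B, C and E. Runx2 scored higher than Runx1 in D alone, at 1.53, where its other profiles gave 0.38 to 0.67. It lies on chromosome 17, which was left out of the rescaling above. Myb was earlier than Mybl1 (1.02) and the cell cycle factor gene Mybl2 (0.65), and Gfi1 earlier than Gfi1b, its counterpart in red cells and platelets, at 0.71.

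Irf8 and Klf4 stood at the other end by median smoothed score. Of 8 scored IRF relatives 1 had a lower median than Irf8, namely Irf4, a lymphocyte factor, at 0.58, and Irf7, an interferon regulator, was the earliest at 1.72. Irf8 (0.72) and Irf5 (0.74) did not separate, since Irf8 scored higher in D, E and F. On rescaled raw levels within 50 kb Irf8 stood at 1.01 and Irf5 at 0.84. Of 13 scored KLF relatives 2 were later than Klf4, the latest being Klf12 at -1.12, and the earliest was Klf2 at 1.73. Among the C/EBP relatives Ddit3, a stress response factor gene, was the earliest at 1.30. Cebpd was the latest at 0.80, where the member Cebpa scored 0.81. On rescaled raw levels within 50 kb Ddit3 (1.38), Cebpd (1.18) and Klf12 (-0.99) did not keep these places.

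Other myeloid regulators had a median of 1.10 over 13 scored genes, and the earliest was Atf3, a stress response factor gene, at 1.47. The 8 scored targets also had a median of 1.10, from the neutrophil elastase gene Elane at 1.63 to Csf1r, the receptor for macrophage colony-stimulating factor, at 0.86. Atf3, Elane and Csf1r did not keep these places on rescaled raw levels.

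**Figure D4:**
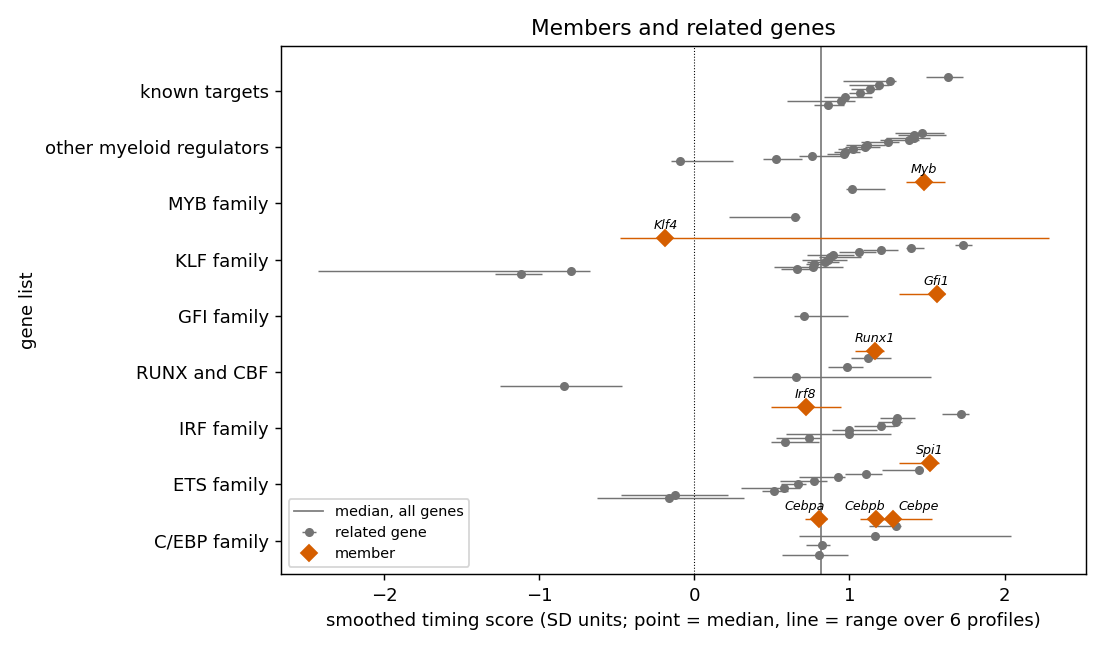
Smoothed timing score (horizontal axis, SD units) of members (diamonds) and related genes (circles) by gene list (vertical axis), each as the median with a line for the range over 6 profiles. By median smoothed score Spi1, Runx1, Gfi1 and Myb lie to the right of their relatives, though some ranges overlap, and the line of Klf4 reaches to 2.29 through profile F.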

How the data were processed

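Genomic DNA of 6 samples (3 for each genotype) was read as 150-base pairs, aiming at 30-fold depth per the labels. The authors deposited 2 tables of 237602 windows (median 10041 bp), on mm10 per the submitters' processing notes, which also name Picard 2.23.9. The first holds a copy level per window, a normalised depth deposited by the authors. The second holds a smoothed timing score, which the authors deposited at mean 0 and SD 1 over the autosomal windows of each column, as seen from the values. TIGER stands in the series title. Aligner, filters and smoothing are not stated by the labels, and the depth behind a window is unknown, so no counting interval was computed.

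Columns carry no names, no column was left unused, and the planned limma comparison of genotypes was not run. Values are given per profile or as median and range, with no test. The window nearest the gene's midpoint was used, within 50 kb, and "earliest 20%" ranks a gene among 18063 autosomal protein-coding genes. Raw levels within 50 kb were means over windows overlapping the gene or its flanks. Bins of 100 kb needed 3 valued windows in each profile. Named genes were the 9 members, the earliest and latest of each related list and within 500 kb, and the gene most like each member. Cebpg, the neighbour of Cebpa, the relatives Etv6, Runx2 and Irf5, and the unscored genes were named outside that rule, after their values were seen. The latest gene of 1 related list is not reported here. The members and lists were chosen with earlier results of these data known. Window, peak and distance functions were tested on simulated data. Software was Python 3.11.15, numpy 2.4.6, pandas 2.3.3, scipy 1.17.1 and matplotlib 3.10.9.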

Additional observations from a re-analysis of the deposited data

Results flagged for a closer look

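Among 6 profiles, 1 profile stood far from the others at Klf4, by Dixon's ratio of the gap to the whole range. The Klf4 timing score of profile F was 2.29, with the nearest other profile at 0.04 and a ratio of 0.81. The raw level within 50 kb of Klf4 was 2.31 in F, with the nearest other at 1.95 and a ratio of 0.84. Chance alone takes about 1 of 20 sets past the limit of this ratio, and 18 sets were looked at, 9 genes with a score and a raw level each. No profile stood apart in this way at the 8 other genes. The profiles are not known replicates of a group, and the cause was not tested.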

How the results depend on the processing

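No paired analysis was possible because no column is tied to a replicate. The comparison of genotypes, with and without a block, was not run. Of 45 member scores under alternatives 41 stayed within 1 SD over the profiles, none changed sign, and 4 moved further. On rescaled raw levels Spi1 stood at 1.18, Cebpe at 1.52 and Irf8 at 1.01, and Runx1 placed at its lower coordinate scored 1.08. For Klf4 the SD over the profiles was 1.04, widened by the high value of F. Its alternatives could therefore hardly move further than that. The median of the members ranged over 1.17 to 1.23 under other settings and over 1.15 to 1.20 with a profile left out. The count above 0 in each profile was 8 on rescaled raw levels and with any profile left out. Members in the earliest share numbered 5 at the earliest 30% and 6 when ranked among windows, and the count above the all-gene median in each profile was 6. Members near a peak in every profile numbered 1 at a prominence of 0.5, 0 within 50 kb, and 2 to 3 with a profile left out (3 without A). The shares of all genes under these altered limits are not given here, and a looser limit takes in more of all genes too. The counts therefore show only how the number of members moves with the setting. The median range of the members was 0.16 after rescaling over the other autosomes, and 0.17 (without F) to 0.26 with a profile left out. Of 16 alternative values for the change of score across a gene 4 turned, for Cebpe (-0.034) and Klf4 (-0.028) over 250 kb, and for Runx1 (-0.59) and Irf8 (0.30) over 1 Mb. Spi1 and Myb gave no value over 1 Mb, where no valued window lay within 50 kb. Since the depth behind a window is unknown, its limit on these values cannot be stated.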
